A study of Rattus norvegicus with 2 samples.

Results

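The prostaglandin synthesis and EP receptor genes described here are 10 genes of the rat: *Ptgs1*, *Ptgs2*, *Ptges*, *Ptges2*, *Ptges3*, *Ptgds*, *Ptgis*, *Ptger2*, *Ptger4* and *Hpgd*. They were chosen by gene symbol, and each matched 1 of the 32662 genes in the deposited expression table. RNA-seq had been carried out on 2 rRNA-depleted libraries of retina from Long-Evans rats aged 2 months. The CTRL library came from a sham-operated retina, and the IR12 library from a retina taken 12 hours after reperfusion that ended a period of ischemia. With 1 library per condition there was no replicate check, so no difference between the conditions was tested and differences between animals cannot be told apart from differences between conditions.

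Prostaglandins are lipid signals made from arachidonic acid that phospholipases release from membranes. Cyclooxygenases turn it into an unstable intermediate, terminal synthases turn that into prostaglandin E, prostaglandin D or prostacyclin, and G protein-coupled receptors such as the EP receptors sense the products until dehydrogenases inactivate them. The inducible cyclooxygenase and the inducible prostaglandin E synthase are known for their part in inflammation, and retinal neurons, glia, vessels and invading leukocytes can all express parts of the pathway.

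Expression was compared as FPKM (fragments per kilobase of transcript scaled to the mapped reads of a library), which is per length and so allows levels of different genes to be set side by side. The log2 ratio is that of FPKM + 1 in IR12 over CTRL, a scale that understates differences of low genes. A gene was counted as higher or lower when it differed by at least 2-fold on this scale and had an FPKM of at least 1 in either library. Of 10 genes, 1 was higher in IR12 (*Ptges*), beside 6.56% of all 13599 genes with an FPKM of at least 1, and 0 were lower, beside 6.12%. Only 6 of the 10 reached that FPKM (*Ptgs2*, *Ptges*, *Ptges2*, *Ptges3*, *Ptgds* and *Hpgd*), and *Ptges* reached it only through IR12, so that it had to differ to be counted. Over all 10 genes 7 had a log2 ratio above 0 and 3 below, with a median of 0.24. Over all 32662 genes the median was 0, with 31.1% above 0 and 27.3% below, and the other 13562 listed at 0 in both libraries. Over the 13599 genes it was 0.02, with 51.8% above 0.

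Which genes counted as changed depended on the scaling between libraries. Higher genes made up 51.7% of all genes past the 2-fold limit as deposited and 86.6% with both columns brought to 1 common sum (the TPM scale). That step moved the median log2 ratio of the genes that reached the minimum from 0.02 to 0.60. Small non-coding RNAs took 68.1% of the summed FPKM in CTRL and 46.3% in IR12, and after leaving them out the same rescaling gave 45.1% and a median of -0.08. On the TPM scale 3 of the 10 genes were at least 2-fold higher (*Ptges*, *Ptgs2* and *Ptges3*), beside 21.0% of all 13492 genes that reached the minimum there. *Gapdh*, a glycolytic gene often used as a reference, had 716 FPKM in CTRL against 690 in IR12 (log2 ratio -0.05, and 0.59 on the TPM scale).

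**Figure D1:**
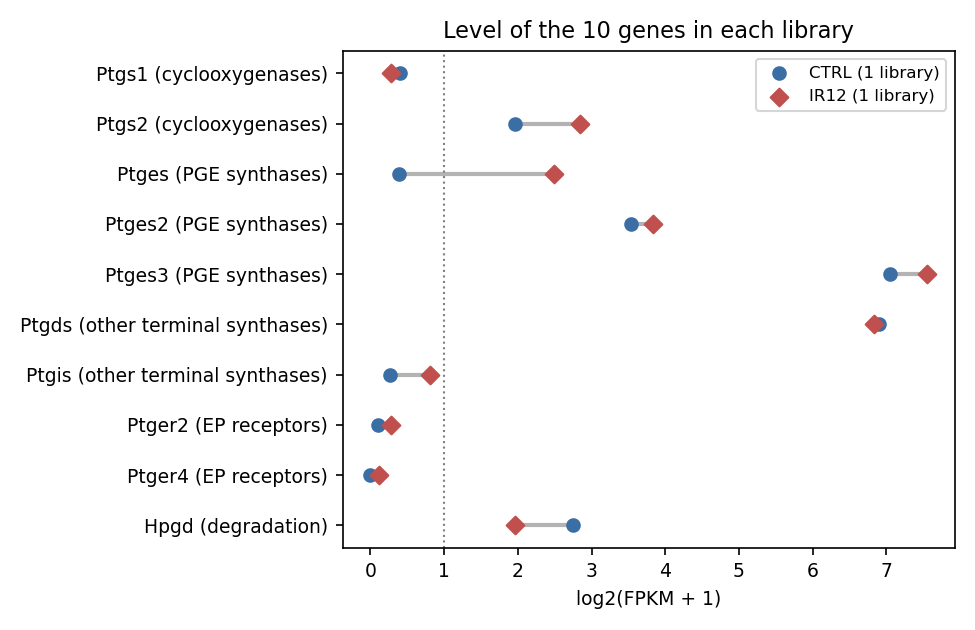
Level of the 10 genes as log2(FPKM + 1), with a circle for the CTRL library and a diamond for the IR12 library. The dotted line is an FPKM of 1, and *Ptges* has the longest line between its points, from 0.309 FPKM in CTRL to 4.63 FPKM in IR12.

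**Figure D2:**
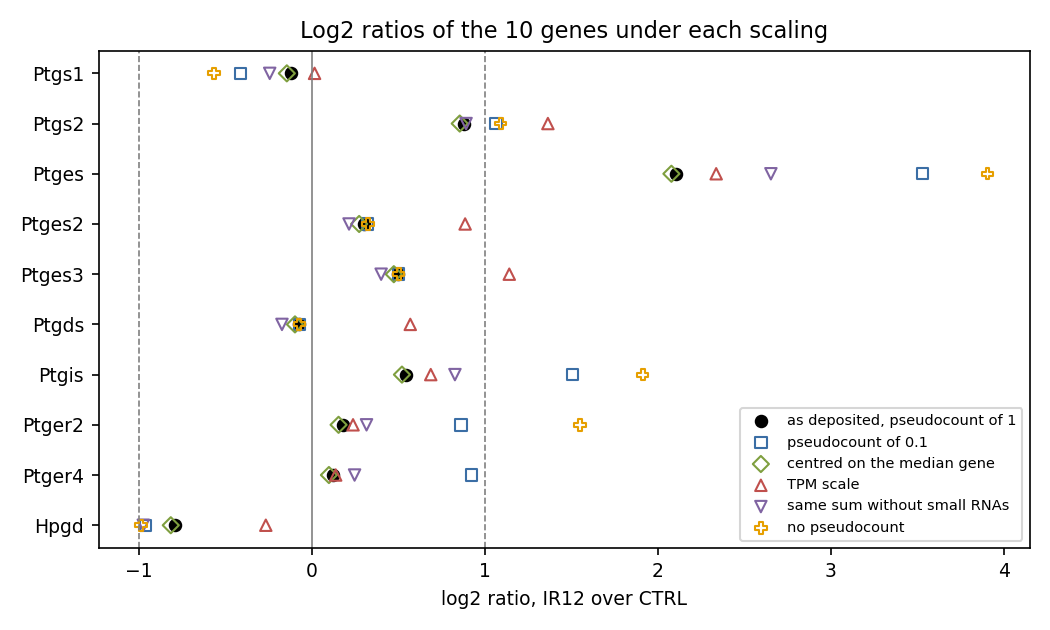
Log2 ratio, IR12 over CTRL, of the 10 genes as deposited with a pseudocount of 1 (black) and under 5 other scalings or pseudocounts (open symbols), with dashed lines at a 2-fold difference. *Ptges* lies past the line under each of them, *Ptgs2* passes it with a pseudocount of 0.1, with none and on the TPM scale, *Ptges3* passes it on the TPM scale, *Ptgis* with a pseudocount of 0.1 (1.51) and with none (1.91), and *Ptger2* with none (1.55).

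The promoters of *Ptgs2* and *Ptges*, the inducible pair of the pathway, and of *Hpgd*, whose product inactivates prostaglandin E, are shown because these 3 genes had the highest and the lowest log2 ratios among the genes that reached the minimum FPKM. Of the 10 genes, 8 had a promoter in the RefSeq table used here (build GRCr8); *Ptges2* and *Ptgis* did not. Each line gives the 250 bases before the start of the gene, 5′ to 3′ on its own strand, at chr13:64713813-64714062 (plus strand) for *Ptgs2*, chr3:34586988-34587237 (minus strand) for *Ptges* and chr16:39034832-39035081 (minus strand) for *Hpgd*. Capitals mark every match to the motifs listed after the sequences.

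Ptgs2: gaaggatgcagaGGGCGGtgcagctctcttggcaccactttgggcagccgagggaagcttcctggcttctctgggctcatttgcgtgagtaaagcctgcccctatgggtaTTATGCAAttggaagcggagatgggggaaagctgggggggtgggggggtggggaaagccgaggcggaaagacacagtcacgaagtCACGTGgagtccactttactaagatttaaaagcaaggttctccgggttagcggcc

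Ptges: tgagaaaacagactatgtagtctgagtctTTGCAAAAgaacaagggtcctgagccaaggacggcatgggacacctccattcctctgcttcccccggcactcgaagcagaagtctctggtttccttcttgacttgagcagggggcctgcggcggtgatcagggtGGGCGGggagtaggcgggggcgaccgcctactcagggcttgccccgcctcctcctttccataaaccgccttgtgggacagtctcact

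Hpgd: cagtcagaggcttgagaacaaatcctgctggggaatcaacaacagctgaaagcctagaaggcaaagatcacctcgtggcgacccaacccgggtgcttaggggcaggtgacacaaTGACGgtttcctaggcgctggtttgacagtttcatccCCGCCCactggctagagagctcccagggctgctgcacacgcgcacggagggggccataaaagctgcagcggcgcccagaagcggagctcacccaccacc

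The motifs were searched on both strands in the same 250 bases of 33469 promoters. The core promoter motif searched was TATAAA. The cAMP response element was searched as TGACGTCA, and separately by the part TGACG that overlaps it. The motif of AP-1 was written TGANTCA, and the E-box was written CACGTG, which contains the hypoxia response core, written ACGTG and also searched alone. The GC box was written GGGCGG, the C/EBP motif was written TTGCNNAA, and the NF-kB consensus was searched as well. *Ptgs2* held CACGTG from 55 to 50 bases before its start, a motif found in 5.59% of all promoters, and TTGCNNAA on the opposite strand from 140 to 133 bases before it. *Ptges* held TTGCNNAA too, from 221 to 214 bases before its start, and 9.22% of all promoters hold that motif. Among the 8 promoters these were the 2 with a TTGCNNAA match. *Hpgd* held TGACG from 136 to 132 bases before its start, and this motif was in 2 of the 8 promoters (*Hpgd* and *Ptges3*) and in 18.2% of all. The hypoxia response core was in 2 of the 8 (*Ptgs2* and *Ptgds*) and in 16.6% of all, the NF-kB consensus in 1 of the 8 (*Ptges3*) and in 6.33% of all, and the GC box in 5 of the 8 and in 30.5% of all. The core promoter, whole cAMP response and AP-1 motifs were in 0 of the 8 windows (and in 12.9%, 1.59% and 6.34% of all promoters), which says only that these letters are not in them, and a match is a string of letters, not a shown binding site.

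The cyclooxygenases carry out the first committed step. *Ptgs1*, the constitutive form (chr3:15560712-15582344 on rn6, the build of the expression table), had 0.324 FPKM in CTRL against 0.219 in IR12, under the minimum in both. *Ptgs2*, the inducible form (chr13:67351087-67359335), had 2.89 in CTRL and 6.17 in IR12. The IR12 library was thus the higher for *Ptgs2*, by 2.13 times in FPKM, while the log2 ratio of FPKM + 1 was 0.88 and short of the limit. It passed the limit with a pseudocount of 0.1 (log2 ratio 1.07) and on the TPM scale (1.36). *Ptgs2* had the higher level of the 2 genes in both libraries, with a *Ptgs2*/*Ptgs1* ratio of 8.92 in CTRL and 28.1 in IR12. A ratio of 2 genes inside 1 library does not depend on the scaling between libraries.

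The prostaglandin E synthases act next. *Ptges* encodes the microsomal, inducible enzyme (ENSRNOG00000006320, chr3:9727408-9738752). Its FPKM was 0.309 in CTRL against 4.63 in IR12, for a log2 ratio of 2.10, and without the pseudocount the FPKM ratio was 15.0. *Ptges* was at least 2-fold higher under each of the 5 other scalings and pseudocounts tried, with log2 ratios between 2.08 and 3.91. *Ptges2*, a membrane-associated synthase, had 10.6 in CTRL and 13.2 in IR12 (log2 ratio 0.30). *Ptges3*, the cytosolic synthase also known as the Hsp90 co-chaperone p23, was the most abundant of the 10 genes in both libraries, with 132 in CTRL and 186 in IR12 (log2 ratio 0.50). Only *Ptges* among the 3 synthases thus passed the limit on the deposited scale, and *Ptges3* passed it on the TPM scale (1.14).

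Despite this difference *Ptges* stayed the least abundant of the prostaglandin E synthases. It made up 0.217% of their summed FPKM in CTRL and 2.26% in IR12. The *Ptges*/*Ptges2* ratio was 0.0292 in CTRL and 0.350 in IR12, and the *Ptges*/*Ptgds* ratio 0.00261 and 0.0412. Both ratios were higher in IR12, by 12.0 and 15.8 times.

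**Figure D3:**
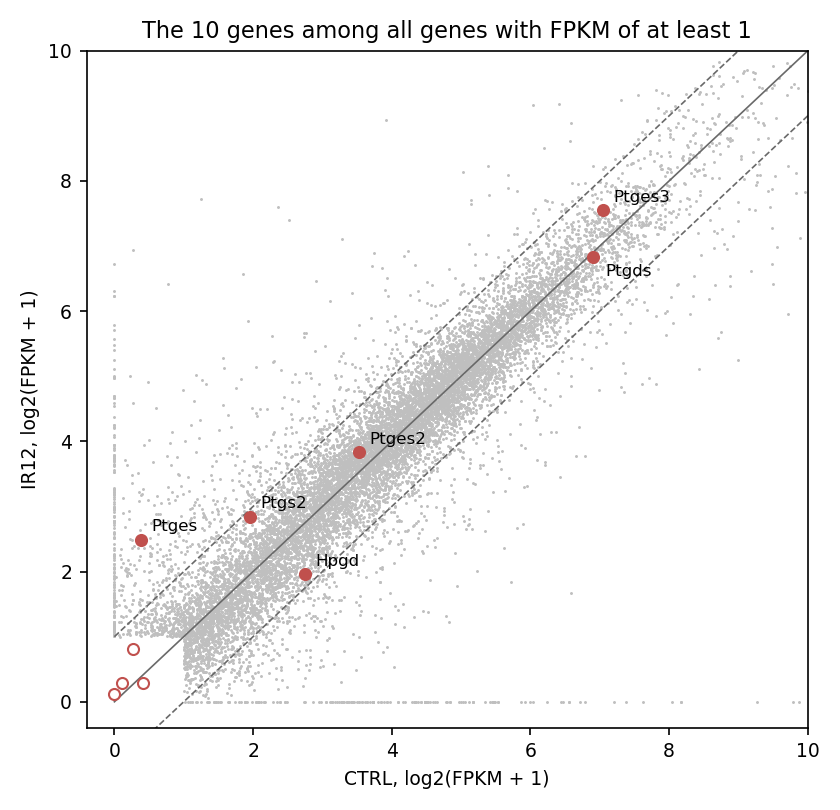
All 13599 genes with an FPKM of at least 1 in either library (grey), CTRL on the x axis and IR12 on the y axis, both as log2(FPKM + 1), with the 10 genes in red; open circles are the 4 genes under the minimum (*Ptgs1*, *Ptgis*, *Ptger2*, *Ptger4*). The solid line marks equal values, the dashed lines a 2-fold difference, both axes stop at 10 with 93 genes past them, and *Ptges* is the 1 red point outside the dashed lines.

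Other terminal synthases make other prostanoids. *Ptgds*, the lipocalin-type prostaglandin D synthase, had 118 FPKM in CTRL against 112 in IR12 (log2 ratio -0.07, and 0.57 on the TPM scale). *Ptgds* and *Ptges3* together held 92.6% of the summed FPKM of the 10 genes in CTRL and 91.4% in IR12. *Ptgis*, the prostacyclin synthase, had 0.200 in CTRL and 0.752 in IR12, under the minimum in both.

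The EP receptors were the least abundant of the 10 genes. EP2 and EP4 both couple to the G protein that raises cAMP. *Ptger2* (EP2) had 0.0739 FPKM in CTRL against 0.216 in IR12. *Ptger4* (EP4) had 0.0897 FPKM in IR12 and a listed 0 in CTRL, so no fold is given. An exact 0 in this table need not mean that no RNA was there, since all 37 mitochondrial genes were listed at 0 in both libraries.

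*Hpgd* encodes the dehydrogenase that starts the inactivation of prostaglandin E. Its FPKM was 5.72 in CTRL against 2.88 in IR12 (chr16:37457135-37495758 on rn6), a log2 ratio of -0.79, the lowest of the 10, and short of the limit under every scaling and pseudocount tried (-0.99 to -0.27). The order of *Ptgs2* and *Hpgd* differed between the libraries. The *Ptgs2*/*Hpgd* ratio was 0.506 in CTRL, where *Hpgd* was the higher, and 2.14 in IR12, where *Ptgs2* was the higher. In order of level, *Ptges3*, *Ptgds* and *Ptges2* came first in both libraries, followed by *Hpgd* and *Ptgs2* in CTRL and by *Ptgs2* and *Ptges* in IR12.

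Low FPKM values moved in steps set by whole reads. At 8 locus lengths between 800 and 1200 bases where 1 read could be seen in both libraries, the same number of reads stood for 1.71 times as much FPKM in CTRL as in IR12. This ratio is that of the scaling in the table and was not taken as the ratio of sequenced reads. The smallest whole numbers of reads that gave the FPKM ratio of *Ptges* were 5 in CTRL and 128 in IR12, for a fold of 15.0 with an exact (Clopper-Pearson) 95% interval of 6.26 to 46.9. For *Hpgd* they were 65 and 56, a fold of 0.504 (0.346 to 0.732). As deposited both intervals lay to one side of 1. On the TPM scale that of *Ptges* was 9.8 to 73.5 and that of *Hpgd* 0.543 to 1.15, which holds 1. Such intervals compare these 2 libraries, not the conditions, and cover counting error only. For *Ptgs1* they were 13 and 15 (0.676, 0.300 to 1.54) and for *Ptger2* 1 and 5 (2.93, 0.328 to 138), each with an interval that held 1. The true numbers can be multiples of these, which would narrow the intervals, and a small pair can also match a ratio of larger numbers by accident. No interval is given for *Ptges2*, whose smallest pair was too small for its FPKM, or for *Ptgs2*, *Ptges3*, *Ptgds* and *Ptgis*, where no pair of up to 100 CTRL and 200 IR12 reads was found.

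The genes most like *Ptges* over the 2 libraries, by Euclidean distance in log2(FPKM + 1), were *Rnf125* (distance 0.07), *Il1a* (0.13), *Birc3* (0.14), *Il2rg* (0.14) and *Ifi27l2b* (0.14). *Il1a*, which encodes the cytokine interleukin-1 alpha, had 0.428 in CTRL and 4.74 in IR12. The genes most like *Hpgd* were *Rbpms2*, *P2ry4*, *Slit1*, *Drp2* and *Vwc2*, at distances of 0.01 to 0.06. *Rbpms2*, which encodes an RNA-binding protein, had 5.68 in CTRL and 2.92 in IR12. With 2 libraries such likeness says only that the levels were close.

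Around the 10 genes, 7 lists of other pathway genes held 50 genes found in the table. Of these, 27 reached the minimum FPKM, 1 lay at least 2-fold above its CTRL level in IR12 and 3 at least 2-fold below, beside 6.56% and 6.12% of all genes. On the TPM scale 7 were higher and 0 lower, beside 21.0% and 3.23% of all genes. Of the 7, 5 were Hsp90 chaperone genes, listed because *Ptges3* is also an Hsp90 co-chaperone, and the others were *Ptgr1* and *Alox5ap*.

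Of 13 genes listed for arachidonate release 12 were found. Of the 12, 9 reached the minimum, 3 fell and 0 rose, where 6.12% of all genes fell and 6.56% rose. *Pla2g16*, an adipose-type phospholipase, had 24.1 FPKM in CTRL against 8.21 in IR12 (log2 ratio -1.44). *Mgll*, the lipase that cleaves monoacylglycerols, had 27.6 and 13.1 (-1.02), and *Pla2g5*, a secreted phospholipase, 27.3 and 12.9 (-1.02). All 3 were lower in IR12 on the deposited scale, and none of them passed the limit on the TPM scale. *Pla2g4a*, the cytosolic phospholipase classically coupled to prostaglandin synthesis, had 3.49 in CTRL and 2.74 in IR12 (-0.26, and 0.22 on the TPM scale).

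Genes that return arachidonate to lipids numbered 4, of which 3 reached the minimum and 0 passed the limit. *Acsl3*, an acyl-CoA synthetase, had 189 in CTRL and 130 in IR12. Among 7 other prostanoid synthases and reductases 0 passed it, and *Ptgr1*, a prostaglandin reductase, came closest with 24.5 in CTRL and 45.0 in IR12 (0.85, and at least 2-fold higher on the TPM scale). *Tbxas1*, the thromboxane synthase, had 0.295 and 0.843. None of the 7 other prostanoid receptors reached an FPKM of 1, and the largest log2 ratio among them was that of *Ptgfr*, the prostaglandin F receptor, with 0.232 in CTRL and 0.937 in IR12. Of 3 transporters 0 passed the limit.

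In the lipoxygenase branch, which uses the same arachidonate, 2 of 10 genes reached the minimum FPKM, and of these *Alox5ap* passed the limit. The other was *Lta4h*, the leukotriene A hydrolase, with 26.4 in CTRL and 33.6 in IR12 (log2 ratio 0.33). *Alox5ap* encodes the protein that presents arachidonate to 5-lipoxygenase and had 2.48 in CTRL and 10.4 in IR12 (log2 ratio 1.72). *Alox5*, the lipoxygenase itself, was near the bottom of the scale in both, at 0.124 and 0.0544.

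All 7 genes of the Hsp90 chaperone system, listed because of the co-chaperone role of *Ptges3*, had log2 ratios above 0 under every scaling tried, and 0 passed the limit as deposited, where 51.8% of all 13599 genes lay above 0. *Hsp90ab1* had the largest, with 370 in CTRL and 646 in IR12 (0.80). On the TPM scale 5 of the 7 passed it, beside 21.0% of all genes that reached the minimum and the shift of their median to 0.60.

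**Figure D4:**
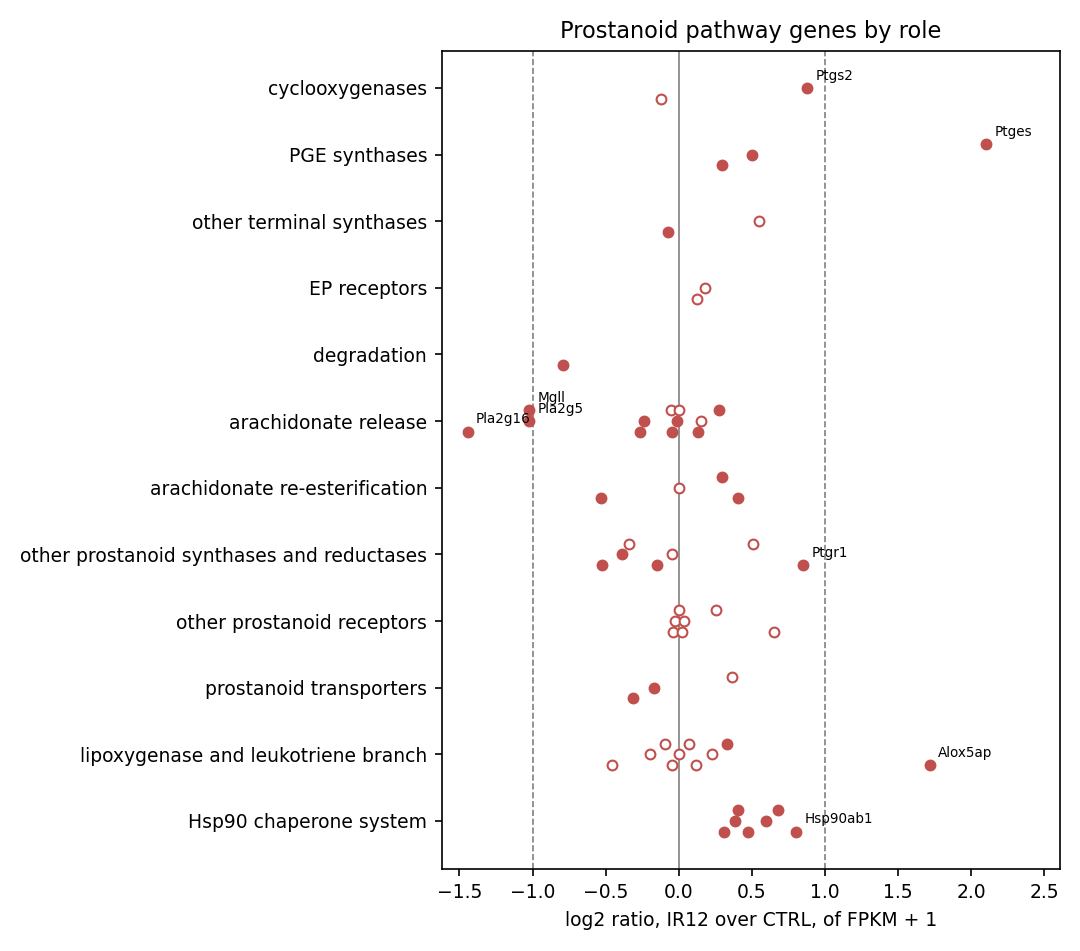
Log2 ratio of FPKM + 1, IR12 over CTRL, for the 10 genes (top 5 lines) and the 7 other pathway lists; filled points reached an FPKM of 1 in either library and open points did not. Dashed lines mark a 2-fold difference; *Ptges* and *Alox5ap* lie right of them and *Pla2g16*, *Mgll* and *Pla2g5* left of them.

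Marker genes of the cell types that a retina sample can hold were compared as well, and 3 of the 11 lists had most of their genes past the limit. In bulk tissue, fewer cells of a type and less RNA per cell cannot be told apart. The label of both libraries as retina fitted the photoreceptor markers, of which 8 of 8 were measured and 0 passed the limit. Their summed FPKM was 16540 in CTRL and 19214 in IR12. On the TPM scale 1 of the 8 was at least 2-fold higher. With equal sums without small non-coding RNAs 1 was at least 2-fold lower.

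Of 8 neutrophil and monocyte markers 7 rose and none fell, with a summed FPKM of 11.2 in CTRL and 127 in IR12. Of the 7, 6 reached the minimum FPKM only through IR12 and so had to be higher there, and the other, *Lyz2*, was above it in both libraries. It was also the most abundant at 9.73 and 76.9, while *S100a8* and *Cxcr2* were listed at 0 in CTRL. These were thus high in the same library as *Ptges*, *Ptgs2* and *Alox5ap*, and their part in those results was not tested. Microglia markers had a sum of 54.1 and 45.9, with 0 of 6 past the limit.

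Müller glia markers fell in 8 of 8 cases, with a summed FPKM of 1563 in CTRL and 347 in IR12. Of the 8, 7 were above the minimum FPKM in both libraries. The other reached it only through CTRL and so had to be lower in IR12. *Glul*, the glutamine synthetase, was the most abundant at 754 and 126. Lens markers fell in 7 of 7 cases, with a sum of 3374 in CTRL and 400.2 in IR12, led by *Cryba1* at 1614 and 196. Of the 7, 6 were above the minimum in both libraries, and the other reached it only through CTRL. The CTRL library thus had the higher levels of the 7 lens and the 8 Müller glia markers listed. *Gfap*, which reactive Müller glia express, was on no list and is named after its values were seen; it had 2.95 in CTRL and 21.9 in IR12 (log2 ratio 2.54), the opposite direction. *Hpgd*, *Pla2g16*, *Mgll* and *Pla2g5* were higher in that library too, and the part of either list in these values was not tested. On the TPM scale 7 of 8 Müller glia markers and 7 of 7 lens markers were still at least 2-fold lower.

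The other lists were smaller or moved less. Of 7 endothelial markers 6 were found, and 0 of these passed the limit (sum 122 in CTRL and 84.1 in IR12, led by *Kdr*). Without *Kdr* the endothelial sum was 14.7 and 17.3, and 3 of the 6 had log2 ratios above 0. Of 7 mural cell markers 1 fell (*Rgs5*, sum 56.3 and 31.5). Without *Rgs5* the mural cell sum was 17.7 and 13.9. With a pseudocount of 0.1, with none and with equal sums without small non-coding RNAs, 2 of the 7 fell. Of 7 fibroblast and meninges markers 2 reached the minimum FPKM, *Igf2* and *Slc13a4*, and both fell. *Slc13a4* reached it only through CTRL and so had to be lower in IR12. Of the 7, 6 had log2 ratios below 0 and 0 above, and *Col1a2* was listed at 0 in both libraries. The fibroblast and meninges sum was 22.2 and 7.28, led by *Igf2*. Pigment epithelium markers had a sum of 92.6 and 110.1, led by *Ttr*, and 30.7 and 22.7 without it, with 1 of 7 lower (*Rpe65*). On the TPM scale *Rgs5*, *Igf2* and *Rpe65* no longer passed the limit, and *Ttr* and *Hbb* were at least 2-fold higher. Oligodendrocyte markers had 12.8 and 12.2, with 0 of 6 past the limit and *Mobp* at 0 in CTRL, and blood markers, of which 2 of 4 were found, 20.8 and 35.3, led by *Hbb*. Their part in the results was not tested.

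**Figure D5:**
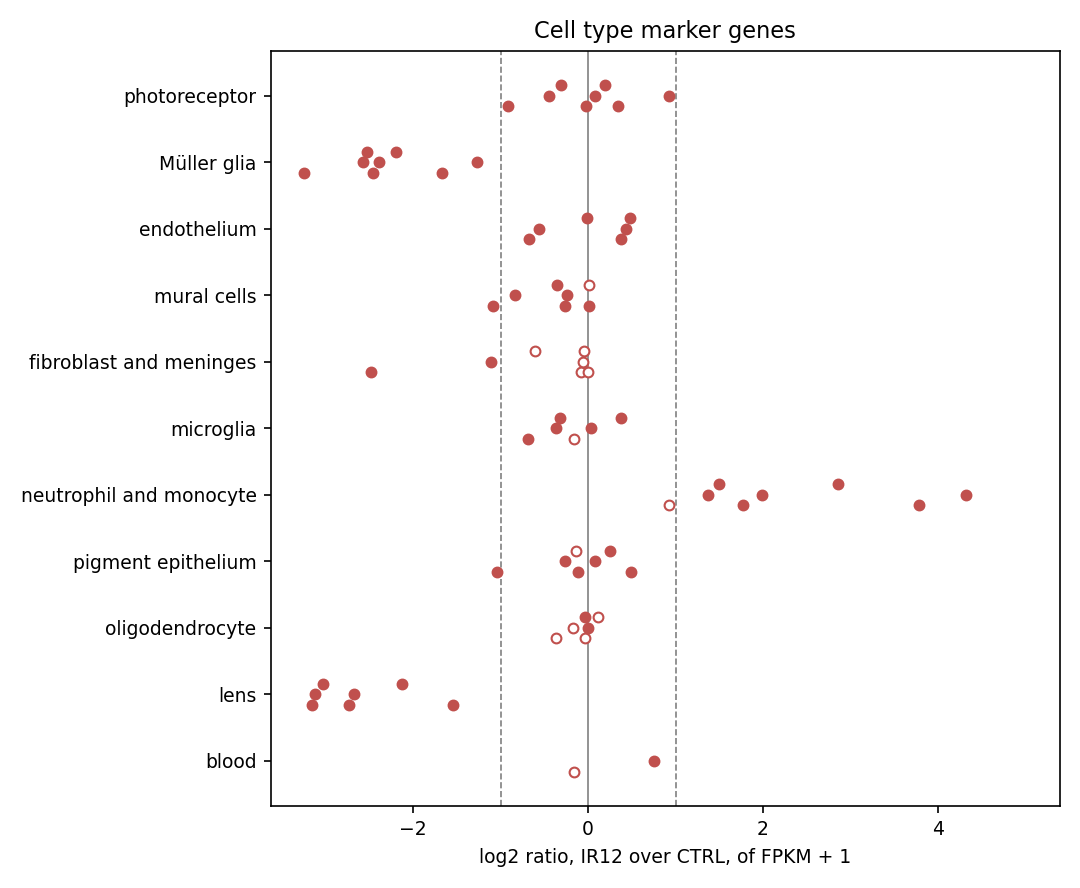
Log2 ratio of FPKM + 1, IR12 over CTRL, for each gene of the 11 marker lists; filled points reached an FPKM of 1 in either library, open points did not, and dashed lines mark a 2-fold difference. All 8 Müller glia and all 7 lens markers lie left of the dashed lines, and 7 of the 8 neutrophil and monocyte markers right of them.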

How the data were processed

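Gene-level FPKM of both libraries was used as the authors deposited it, 1 column per library matched by name. The submitters' processing notes name STAR 2.5.2b, Cuffdiff 2.2.0 and build rn6 with no roles given here. Locus starts, counted from 0, were raised by 1. Tables were handled in pandas 2.3.3 and numpy 2.4.6 under Python 3.11.15, intervals came from scipy 1.17.1, and plots from matplotlib 3.10.9.

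The log2 ratio used a pseudocount of 1, with a 2-fold limit among genes with an FPKM of at least 1 in either library. Other settings were 0.1 as the pseudocount, log2 ratios centred at the median gene, 2 rescalings to equal sums, and a minimum FPKM of 5 or none. The members and lists were chosen with earlier results of these data known. Named are the 10 members, genes of the pathway lists, leading markers and markers listed at 0, *Gapdh*, and the 5 nearest genes to the members with the highest and lowest log2 ratio. Outside this rule *Gfap*, *Slc13a4* and *Rpe65* were named after their values were seen. *Cbr1* had more than 1 row, and the higher was used. The leading gene of 3 marker lists is not reported here.

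Read steps and intervals were added after the data were seen. A step was the lowest FPKM shared by several loci of equal length, taken as 1 read where step times length was near the library's lowest; pairs matched within 0.001%. An earlier rule, the most frequent FPKM ratio, did not recover the read-worth ratio of simulated data, nor did a median over lengths, and both were replaced; the final rule recovered it. The value for the retina libraries was the same under all of them.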

Additional observations from a re-analysis of the deposited data

How the results depend on the processing

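Of 98 values recomputed over 17 results, 77 kept their direction and side of the limit or moved little (counts within 1.5 times, medians within 0.1). The number of the 10 genes at least 2-fold higher, 1 as reported, was 2 with a pseudocount of 0.1 and 2 with no pseudocount (an alternative chosen after seeing the data), as *Ptgs2* passed the limit. It was 3 on the TPM scale, and 0 with a minimum FPKM of 5, which left *Ptges* out. Beside these, 8.59% of all genes were higher with a pseudocount of 0.1 and 7.65% with none. The share was 21.0% on the TPM scale and 6.37% with a minimum FPKM of 5. The number of the 10 genes lower was 0 throughout, beside 2.55% to 8.65% of all genes. The median log2 ratio of the members that reached the minimum was 0.40, and 1.01 on the TPM scale, where that of all genes that reached it was 0.60. It was 0.30 with a minimum of 5, over 5 genes without *Ptges*, and 0.24 with none, over all 10. Other pathway genes at least 2-fold higher numbered 7 on the TPM scale against 1, and those lower 0 against 3. Of the 7, 5 were Hsp90 chaperone genes. The shares of all genes were 21.0% against 6.56% higher and 3.23% against 6.12% lower. *Ptgds* (0.57) and *Ptgs1* (0.016) changed sign on that scale, which multiplies IR12 over CTRL by 1.57.

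No paired analysis was possible because each condition had 1 library. The FPKM of *Ptgs1*, *Ptgis* and the EP receptors lay under 1 in both libraries, and whether depth limits them was not tested.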
